A study of Mus musculus with 11 samples.

Results

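The 10 enzymes described here make prostanoids and leukotrienes, the lipid mediators that cells form from arachidonic acid. They were taken by gene symbol from a table of 21860 genes: the cyclooxygenases Ptgs1 and Ptgs2, the prostanoid synthases Ptgis, Tbxas1, Ptges and Hpgds, and the leukotriene enzymes Alox5, Alox5ap, Lta4h and Ltc4s. All 10 were found, with 1 row each. The set was chosen by measured values of these same samples, the levels of Ptgis and of other members across the culture groups, so the differences between groups for the 10 enzymes are a description, and no p-value is printed for any of them.

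Bulk RNA was sequenced from 11 sorted samples of mLC-like cells, monocyte-derived cells that resemble Langerhans cells, the phagocytes of the epidermis. They were grown from mouse bone marrow monocytes, harvested on day 6 and gated as CD11b-low and EpCAM+, EpCAM being a surface adhesion protein that Langerhans cells carry. The study asked how Notch signals combine with other signals of the skin. GM-CSF (20 ng/ml) was present throughout. The Jag1 only sample (n = 1) received GM-CSF and the Notch ligand Jagged-1 (Jag1) without TGFβ or IL-34. The other 10 samples were given TGFβ (5 ng/ml) plus IL-34 (8 µg/ml), either alone (TGFβ/IL-34, n = 2), with FICZ (TGFβ/IL-34/FICZ, n = 2), with Jag1 (TGFβ/IL-34/Jag1, n = 3) or with both (TGFβ/IL-34/Jag1/FICZ, n = 3). FICZ is a small molecule ligand of the aryl hydrocarbon receptor (Ahr), described as an agonist in the study and as an antagonist in the deposited design text, and its dose is not given in the sources used here. Jag1 was presented by OP9, a stromal line from mouse. The sample labels list OP9 co-culture for all 11 samples, whereas the culture scheme of the study has monocytes alone where Jag1 is absent, so the ligand and the stroma that carries it cannot be told apart. Mouse strain, age and sex are not given in the labels. Nothing states that samples of a group came from separate animals, and the spread between them may be partly technical.

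Values are normalized counts, in which 1 read was worth 0.894 to 1.15 units, at an estimated 20.6 to 24.2 M reads per sample. The sort marker Epcam stood between 3952 and 14377 in the 10 samples with TGFβ and IL-34 and at 657 in the Jag1 only sample. Cd207, the gene of the Langerhans cell lectin langerin, stood between 1366 and 1784 in TGFβ/IL-34/Jag1 and between 6.21 and 157 in the other samples, so the cells of the other groups lacked a high level of this defining marker. Replicate 1 of TGFβ/IL-34/FICZ stood apart from replicate 2 in several members, as given below. It and replicate 1 of TGFβ/IL-34/Jag1/FICZ were sequenced on 1 flow cell and the other 9 samples on another. By the sample description, replicates 1 and 2 of TGFβ/IL-34/FICZ carry the experiment codes AA45 and AA47. Within this group the flow cell, the experiment code and the replicate therefore cannot be told apart. TGFβ/IL-34 holds AA47 and AA48, and both groups with TGFβ, IL-34 and Jag1 hold AA45, AA47 and AA48. A second deposited table gives AA45 for replicate 1 of TGFβ/IL-34. In these bulk samples, fewer cells of a type and less RNA per cell cannot be told apart.

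The pathway starts when phospholipase A2 frees arachidonic acid from membranes. Cyclooxygenases convert it to prostaglandin H, from which a terminal synthase makes prostacyclin (Ptgis), thromboxane (Tbxas1), prostaglandin E (Ptges) or prostaglandin D (Hpgds). In the other branch, 5-lipoxygenase (Alox5) with its helper protein FLAP (Alox5ap) makes leukotriene A, which Lta4h hydrolyses to leukotriene B, a chemoattractant, and Ltc4s joins to glutathione to give the cysteinyl leukotrienes. Dendritic cells, macrophages and granulocytes are known sources of these lipids, and prostacyclin is best known from endothelium.

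Compared per kb of the canonical transcript, which allows levels of different genes to be set side by side, the group means in TGFβ/IL-34 were 4086 normalized counts per kb for Ptgs1, 4011 for Alox5, 3009 for Ltc4s, 2453 for Alox5ap and 1616 for Lta4h. Tbxas1 followed at 722 per kb and Hpgds at 465 per kb. The remaining 3 members stood far lower, with 8.08 per kb for Ptgis, 5.63 for Ptges and 5.61 for Ptgs2. The profile of this group was thus led by the constitutive cyclooxygenase and the 4 leukotriene enzymes. In TGFβ/IL-34/Jag1, Ptgis took the second place of the 10 at 2935 per kb, after Alox5 at 3167. Dividing by the union of all exons instead of the canonical transcript moved Lta4h from rank 3 to rank 5 in TGFβ/IL-34/Jag1/FICZ, since its annotated exons span far more sequence than its canonical transcript.

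**Figure D1:**
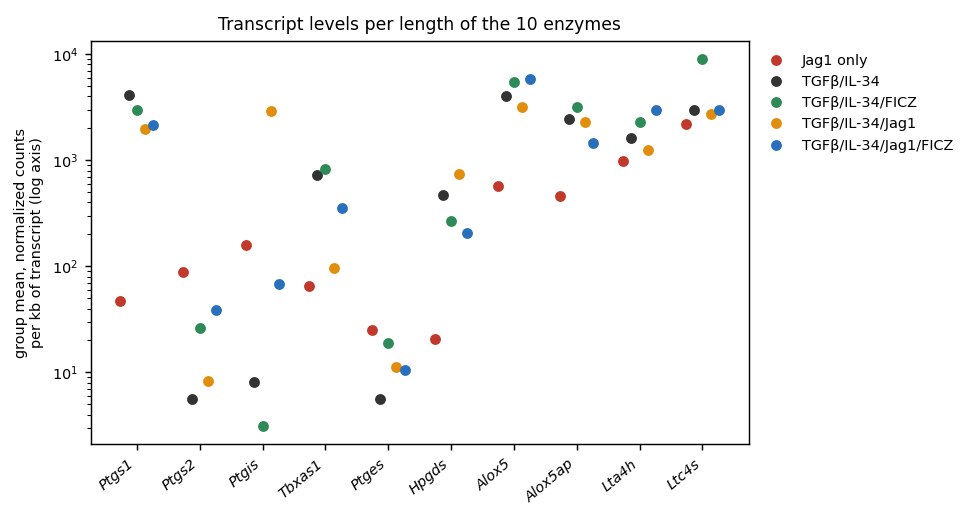
Group means of the 10 enzymes in normalized counts per kb of canonical transcript (log axis), 1 point per culture group. Ptgis in TGFβ/IL-34/Jag1 (2935 per kb) stands at the height of Alox5 and Ltc4s, and in TGFβ/IL-34/FICZ at 3.13 per kb.

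Ptgis encodes prostacyclin synthase (chr2:167033725-167083018, minus strand, GRCm39). Its values were 28.8 and 6.77 in TGFβ/IL-34, 10.6 and 3.16 in TGFβ/IL-34/FICZ, 5054, 6007 and 8307 in TGFβ/IL-34/Jag1, and 96.3, 41.5 and 309 in TGFβ/IL-34/Jag1/FICZ. It read 352 in the Jag1 only sample. The 3 TGFβ/IL-34/Jag1 samples were thus above all others, the Jag1 only sample and the 3 samples with both agents lay between, and the 4 samples without Jag1 were lowest, down to 3.16 normalized counts in 1 library, which is near 3 reads. Only the groups TGFβ/IL-34 and TGFβ/IL-34/FICZ overlapped. The mean with Jag1 was 363-fold that of TGFβ/IL-34 (log2 difference 8.70 ± 0.81, SE), and adding FICZ to Jag1 gave a mean 43.3-fold lower (log2 difference −5.86 ± 0.73). Jag1 in the presence of FICZ gave a log2 difference of 3.97 ± 0.81. Log2 differences here and below are of log2(value + 1), so that changes of low genes come out too small.

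Tbxas1, thromboxane synthase (chr6:38852203-39061523, plus strand, GRCm39), had the opposite order. Its values were 1683 and 1233 in TGFβ/IL-34, 1257 and 2096 with FICZ alone, 327, 135 and 124 with Jag1, and 580, 815 and 759 with Jag1 and FICZ. The Jag1 only sample read 130. Samples with Jag1 and no FICZ were the lowest of the 4 groups with TGFβ and IL-34, and those with both agents stood between them and the samples without Jag1, without overlap. The mean was 7.47-fold lower with Jag1 than in TGFβ/IL-34 (log2 difference −3.02 ± 0.41, SE) and 3.68-fold higher with FICZ and Jag1 than with Jag1 (2.01 ± 0.36). Per kb, the ratio of Ptgis to Tbxas1, the enzymes of lipids with opposing actions on platelets and vessels, was 14.2, 40.8 and 61.6 in the TGFβ/IL-34/Jag1 samples. It was 0.152, 0.0468 and 0.374 with FICZ added and 0.00139 to 0.0157 in the 4 samples without Jag1. The ratio was thus above 1 in the 4 samples that had Jag1 and no FICZ, the Jag1 only sample included at 2.48, and below 1 in the other 7.

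**Figure D2:**
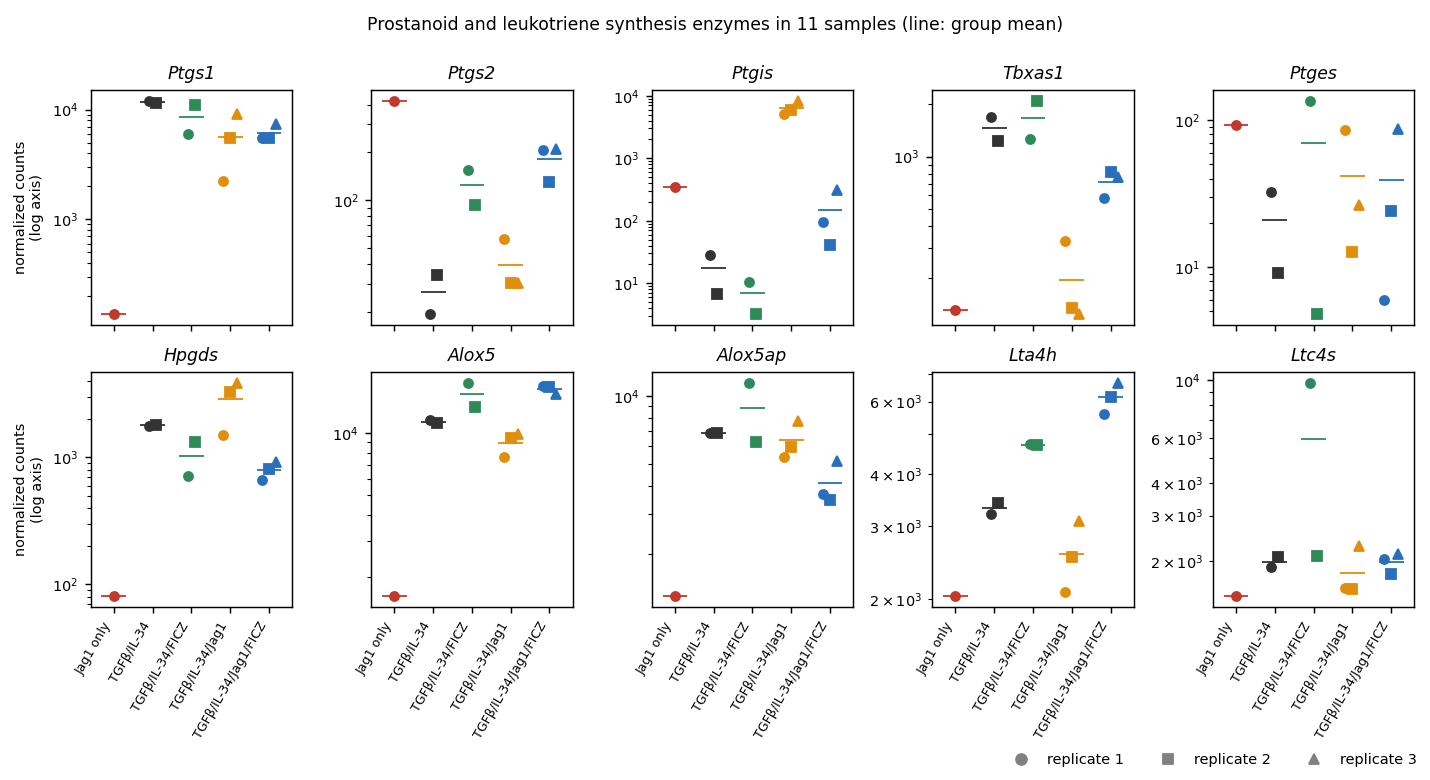
Normalized counts (log axis) of the 10 enzymes in each of the 11 samples, by culture group, with the group mean as a line and the replicate number as the symbol. Ptgis is highest in the 3 TGFβ/IL-34/Jag1 samples (5054 to 8307) and Tbxas1 is lowest in those and in the Jag1 only sample.

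The cyclooxygenases differed from each other. Ptgs1 (chr2:36120438-36142287, plus strand, GRCm39), the constitutive form, read 12030 and 11396 in TGFβ/IL-34, 6022 and 11117 with FICZ, 2217, 5499 and 9066 with Jag1, and 5528, 5531 and 7398 with both. The Jag1 only sample was far below, at 136. Values with Jag1 spread over a wide range, but all 3 were below both TGFβ/IL-34 samples (log2 difference −1.29 ± 0.48, SE), and with and without FICZ the Jag1 groups overlapped. Ptgs2 (chr1:149975194-149983978, plus strand, GRCm39), the inducible form, read 19.2 and 34.1 in TGFβ/IL-34, 155 and 93.4 with FICZ, 56.9, 30.2 and 30.3 with Jag1, and 207, 130 and 209 with both. Every FICZ sample was thus above every sample with TGFβ and IL-34 and no FICZ. The mean was 4.67-fold higher with FICZ in the absence of Jag1 (log2 difference 2.19 ± 0.48) and 4.66-fold higher in its presence (2.22 ± 0.39). The difference between these log2 differences was 0.03 ± 0.61. The Jag1 only sample, without FICZ, read 423 and was the highest of all 11. It was also the only sample in which Ptgs2 exceeded Ptgs1, with a ratio of Ptgs1 to Ptgs2 per kb of 0.533, against 44.1 to 1039 in the others.

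Hpgds (chr6:65094001-65121983, minus strand, GRCm39), the hematopoietic prostaglandin D synthase, read 1759 and 1817 in TGFβ/IL-34, 714 and 1333 with FICZ, 1490, 3261 and 3871 with Jag1, and 660, 805 and 926 with both. The Jag1 only sample read 80.2. All FICZ samples were below all samples with TGFβ and IL-34 and no FICZ, the log2 difference being −0.87 ± 0.43 (SE) without Jag1 and −1.75 ± 0.35 with it. Ptges (chr2:30779483-30820196, minus strand, GRCm39), the inducible prostaglandin E synthase, stood between 4.77 and 135, and its replicates differed as much as its groups: TGFβ/IL-34/FICZ replicates 1 and 2 read 135 and 4.77. All neighbouring groups overlapped, and its SE of 1.25 to 1.53 on the log2 scale means that only very large differences were detectable in the pairwise contrasts.

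In the leukotriene branch, Alox5 (chr6:116387032-116438139, minus strand, GRCm39) read 11482 and 11197 in TGFβ/IL-34, 17444 and 13368 with FICZ, 7629, 9402 and 9829 with Jag1, and 16903, 16730 and 15385 with both. Samples with FICZ were above those without it, and the Jag1 samples without FICZ were the lowest of the 10 with TGFβ and IL-34. Lta4h (chr10:93289210-93320749, plus strand, GRCm39), which makes leukotriene B, read 3217 and 3417 in TGFβ/IL-34, 4728 and 4708 with FICZ, 2083, 2522 and 3095 with Jag1, and 5596, 6160 and 6656 with both. All 5 groups were separate from their neighbours in the order of Lta4h, though the lowest neighbour is the Jag1 only sample at 2030. With FICZ added to Jag1, the means were 1.82-fold higher for Alox5 (log2 difference 0.88 ± 0.16, SE) and 2.39-fold higher for Lta4h (1.27 ± 0.16). Without Jag1 the log2 differences with FICZ were 0.43 ± 0.20 for Alox5 and 0.51 ± 0.20 for Lta4h.

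Alox5ap and Ltc4s did not follow Alox5 and Lta4h. Alox5ap (chr5:149196003-149227762, plus strand, GRCm39) read 6843 and 6852 in TGFβ/IL-34, 11406 and 6263 with FICZ, 5364, 5962 and 7754 with Jag1, and 3663, 3462 and 5162 with both. The samples with both agents were the lowest of the 10 with TGFβ and IL-34, and the ratio of Alox5 to Alox5ap normalized counts was 4.61, 4.83 and 2.98 there against 1.25 to 2.13 in the other 8 samples. Ltc4s (chr11:50127288-50129443, minus strand, GRCm39) read 1562 to 2285 in the 8 samples with TGFβ and IL-34 other than those of TGFβ/IL-34/FICZ and 1461 in the Jag1 only sample. In TGFβ/IL-34/FICZ it read 9780 in replicate 1 and 2087 in replicate 2, so the group mean of 5933 rests on 1 library, which is the one sequenced on the other flow cell. The TGFβ/IL-34/Jag1/FICZ sample of that flow cell read 2035. For the high library, flow cell, experiment code and replicate cannot be told apart, and the cause was not tested. The ratio of Lta4h to Ltc4s per kb, the enzymes that compete for leukotriene A, was 0.884, 1.10 and 1.01 in TGFβ/IL-34/Jag1/FICZ, 0.425, 0.519 and 0.435 in TGFβ/IL-34/Jag1, and 0.155 and 0.725 in the replicates of TGFβ/IL-34/FICZ. It was highest in the samples with both agents.

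The Jag1 only sample, a single library, was the lowest of all 11 for Ptgs1, Hpgds, Alox5, Alox5ap, Ltc4s and Lta4h and the highest for Ptgs2. Its distance from the lowest of the other samples differed between members: Ptgs1 read 136 against 2217 or more, and Lta4h 2030 against 2083 or more. It allows no test.

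Read against all 13095 tested genes, 2 members of 10 passed an adjusted p of 0.05 in limma with Jag1 in the absence of FICZ, Ptgis higher and Tbxas1 lower, where 6.6% of all genes passed (2.64% higher and 3.96% lower). Adding FICZ to Jag1, 6 members passed: Ptgs2, Tbxas1, Alox5 and Lta4h higher, Ptgis and Hpgds lower. There 17.7% of all genes passed, 10.9% higher and 6.71% lower. With FICZ in the absence of Jag1 no member passed, by limma, while 0.0229% of all genes passed (0.0153% higher and 0.00764% lower). An unadjusted p under 0.05 was held by 2 members and by 2284 of all genes. With Jag1 in the presence of FICZ, Ptgis alone passed, where 2.02% of all genes did (1.41% higher and 0.603% lower). No member passed the interaction, which 1.39% of all genes passed (1.17% higher and 0.221% lower). Its unadjusted p was under 0.05 for 4 members and for 2458 of all genes. With the replicate number as a block, Ptgis passed the interaction too, but with neither experiment code as a block. When flow cell was entered as a block, and when only the 9 samples of 1 flow cell were fitted, leaving 1 sample in TGFβ/IL-34/FICZ, the same 2 members passed for Jag1 without FICZ and the same 6 for FICZ with Jag1. Ptgis passed for Jag1 with FICZ with the block but not with the 9 samples. Both alternatives were chosen after seeing the data. The set was selected on these contrasts, and the share of members is therefore no evidence about the pathway. The FICZ contrasts with and without Jag1 share no samples, whereas the contrasts of FICZ and of Jag1 share their common group.

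The values without Jag1 rest on 4 samples. When TGFβ/IL-34/FICZ replicate 2 was left out, with the lone replicate 1 assumed to have the spread of the other samples, 5 members (Alox5, Alox5ap, Hpgds, Ltc4s and Ptgs2) and 5734 genes in all passed in the contrast of FICZ without Jag1. When replicate 1 was left out instead, no member and no gene did. For Jag1 in the presence of FICZ the first omission gave 3 members, Alox5ap, Ltc4s and Ptgis, among 5827 genes in all. There Ptgis lost its call without any 1 of 8 other samples, that is every sample but the Jag1 only one, TGFβ/IL-34/FICZ replicate 2 and TGFβ/IL-34/Jag1/FICZ replicate 2, and the count was then 0.

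**Figure D3:**
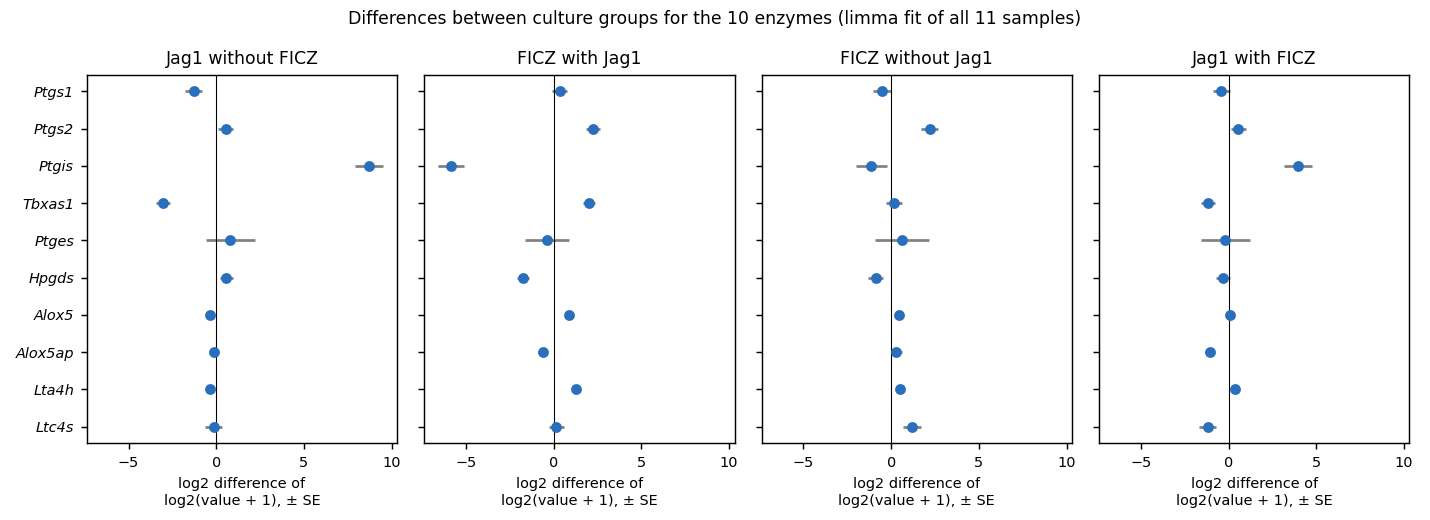
Log2 differences (± SE) of the 10 enzymes in 4 contrasts between culture groups, from a fit of all 11 samples. Jag1 without FICZ has Ptgis at 8.70 and Tbxas1 at −3.02, and FICZ with Jag1 has Ptgis at −5.86 and Tbxas1 at 2.01.

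The upstream sequences of the 4 members that were higher when FICZ was added to Jag1 are shown with the letters of the Ahr recognition core, since FICZ is an Ahr ligand. They come from RefSeq (GRCm38.p6), which held promoters for 8 of the 10 members and none for Ptgis and Alox5ap, and cover the 250 bases before the gene start, 5′ to 3′ on the gene's strand. The motifs searched were GCGTG (the Ahr core), TATAAA (the TATA box) and TGGGAA (the core of the Notch partner Rbpj), on both strands. Capitals mark every match of GCGTG and TATAAA.
Ptgs2 (chr1:150099781-150100030, plus strand): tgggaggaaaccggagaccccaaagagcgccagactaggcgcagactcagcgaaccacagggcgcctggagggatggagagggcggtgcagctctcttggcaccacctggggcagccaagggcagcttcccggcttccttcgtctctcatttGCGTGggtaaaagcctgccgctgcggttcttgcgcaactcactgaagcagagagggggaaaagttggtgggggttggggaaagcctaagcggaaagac
Tbxas1 (chr6:38918736-38918985, plus strand): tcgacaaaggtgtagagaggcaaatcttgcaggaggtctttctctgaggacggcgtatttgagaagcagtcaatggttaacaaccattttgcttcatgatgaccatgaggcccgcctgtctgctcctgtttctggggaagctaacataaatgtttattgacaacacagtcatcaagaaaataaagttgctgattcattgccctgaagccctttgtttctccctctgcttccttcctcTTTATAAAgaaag
Alox5 (chr6:116461179-116461428, minus strand): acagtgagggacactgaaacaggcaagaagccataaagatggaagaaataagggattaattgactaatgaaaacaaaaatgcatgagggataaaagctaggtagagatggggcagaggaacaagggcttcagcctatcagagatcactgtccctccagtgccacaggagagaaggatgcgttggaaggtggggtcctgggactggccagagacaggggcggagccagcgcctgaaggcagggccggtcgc
Lta4h (chr10:93453146-93453395, plus strand): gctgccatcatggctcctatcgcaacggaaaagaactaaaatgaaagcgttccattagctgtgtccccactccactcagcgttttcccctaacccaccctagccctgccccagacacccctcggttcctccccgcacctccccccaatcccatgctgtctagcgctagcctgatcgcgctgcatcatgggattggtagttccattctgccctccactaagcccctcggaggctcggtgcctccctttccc
GCGTG occurred in 1 place in Ptgs2 and in Ptges, and in no other of the 8. Of all 32851 promoters in the table, 28.2% held GCGTG and 12.4% held TATAAA. Tbxas1 held 2 overlapping TATAAA matches, 1 per strand. TGGGAA, found in 21.6% of all promoters, occurred in Ptges and Ltc4s among the 8. A match is a description of letters and not of binding.

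Stromal transcripts moved with Jag1. The summed level of 10 stromal genes was 12.8 to 22.0 in TGFβ/IL-34, 23.4 to 38.0 in TGFβ/IL-34/FICZ, 391 to 1058 in TGFβ/IL-34/Jag1 and 736 to 4640 in TGFβ/IL-34/Jag1/FICZ, with 666 in the Jag1 only sample. With Jag1 in the absence of FICZ, 5 of 8 tested stromal genes rose, beside 2.64% of all tested genes. Dcn and Lum were under 3 in every sample. Beside these sums, Ptgis read 3.16 to 28.8 in the 4 samples without Jag1, 5054 to 8307 in TGFβ/IL-34/Jag1 and 41.5 to 309 in TGFβ/IL-34/Jag1/FICZ. Within the last group, replicate 3 had both the highest sum (4640) and the highest Ptgis (309). Its replicates 1 and 2 ran the other way, with sums of 736 and 1760 and Ptgis of 96.3 and 41.5. In TGFβ/IL-34/Jag1, replicate 3 had the lowest sum (391) and the highest Ptgis (8307). Replicates 1 and 2 of that group ran together, with sums of 602 and 1058 and Ptgis of 5054 and 6007. The part of stromal RNA in the level of Ptgis was not tested. The summed endothelial list stood at 303 to 498 in TGFβ/IL-34/Jag1 and 3708 to 4331 with FICZ added. Of its 3 tested genes only Pecam1 rose (means 224 and 3812), while Vwf (188 and 188) and Kdr (2.80 and 3.42) did not pass. Its marker Cdh5 was under 3 in every sample.

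**Figure D4:**
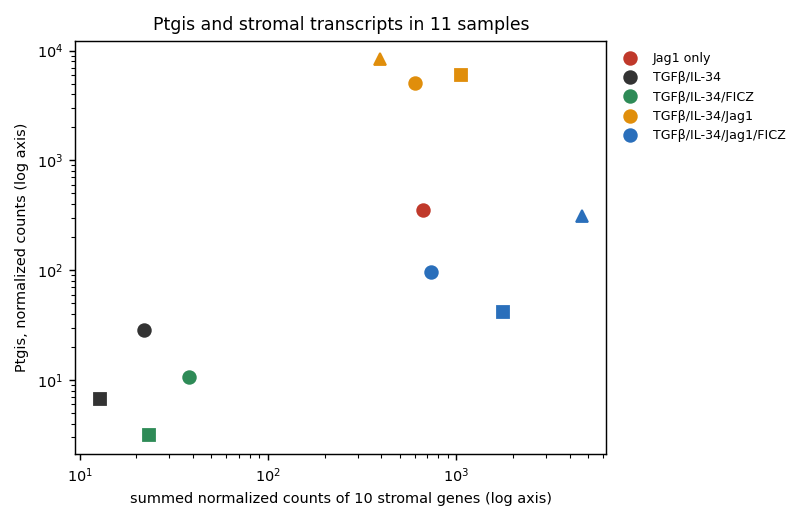
Ptgis against the summed level of 10 stromal genes (both log axes) in the 11 samples, by culture group and replicate symbol. Samples with Jag1 share stromal sums of 391 to 4640, and among those with TGFβ and IL-34, Ptgis separates the samples without FICZ (5054 to 8307) from those with it (41.5 to 309).

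Genes of granulocytes, cells known for Alox5 and Lta4h, also moved when FICZ was added to Jag1. The summed level of 10 neutrophil lineage genes was 265 to 346 in TGFβ/IL-34/Jag1 and 9510 to 13768 in TGFβ/IL-34/Jag1/FICZ, and 7 of 9 tested genes rose. Mpo (means 6.52 and 3.95) and Camp (3.19 and 33.7) did not pass, and Ly6g was under 3 in every sample of both groups. The mast cell and basophil list stood at 1839 to 2983 and 10091 to 13155 in these groups, where 5 of 6 tested genes rose and the markers Tpsb2, Tpsab1 and Fcer1a were under 3 throughout. Without Jag1, the neutrophil lineage sum was 483 to 1785 in TGFβ/IL-34 and 3734 to 5750 with FICZ, and none of its 9 tested genes passed. There Alox5 read 11197 to 11482 and 13368 to 17444, and Lta4h 3217 to 3417 and 4708 to 4728. The megakaryocyte and platelet list stood at 541 to 579 in TGFβ/IL-34/Jag1 and 4468 to 5610 with FICZ added. Of its 3 tested genes, Itga2b rose, Pf4 and Ppbp did not pass, and its markers Gp1bb and Gp9 were under 3 in every sample. Tbxas1 read 124 to 327 and 580 to 815 in these groups. In TGFβ/IL-34 and TGFβ/IL-34/FICZ the list stood at 1987 to 2333 and 4562 to 5831, and Tbxas1 read 1233 to 1683 and 1257 to 2096. Of 7 Langerhans cell genes, 4 fell when FICZ was added to Jag1. In that contrast 10.9% of all tested genes rose and 6.71% fell. With Jag1 in the absence of FICZ, 4 of 6 monocyte and macrophage genes fell, among them Lyz2 and Ly6c2, beside 3.96% of all tested genes. The sum of that list was 49813 and 53466 in TGFβ/IL-34 and 23805 to 45289 in TGFβ/IL-34/Jag1. The part of these cell programs in the levels of the members and of the receptors given next was not tested.

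Other genes of the pathway, listed by role and chosen with earlier results of these data known, were tested in the same fit. Of 46 genes listed, 45 had a row and 29 passed the filter on low values. With Jag1 in the absence of FICZ, 6 of the 29 fell and none rose (limma, adjusted p under 0.05, against 3.96% of all genes falling), and the median log2 difference of the 29 was 0.03, beside −0.0041 over all tested genes. Adding FICZ to Jag1, 8 rose and 1 fell, against 10.9% of all genes rising and 6.71% falling. The median there was 0.38 beside −0.0083. With FICZ in the absence of Jag1, and with Jag1 in the presence of FICZ, none passed by limma. An unadjusted p under 0.05 was held by 5 and 6 of the 29, beside 2284 and 3039 of all 13095 tested genes.

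Receptors made up 4 of the 6 decreases with Jag1 and 4 of the 8 increases with FICZ added. The 29 tested genes included 6 prostanoid receptors and 4 leukotriene receptors. Ptgir, the receptor for prostacyclin, read 333 and 363 in TGFβ/IL-34, 291 and 366 with FICZ, 131, 92.6 and 70.7 with Jag1, and 338, 356 and 345 with both. It fell by 1.86 on the log2 scale with Jag1 (SE 0.27, limma adjusted p 0.00328), the group in which Ptgis was highest, and rose by 1.86 when FICZ was added (SE 0.25, limma adjusted p 0.000656). Ptger2, a prostaglandin E receptor, read 113 and 116 in TGFβ/IL-34, 352 and 158 with FICZ, 21.3, 9.72 and 15.6 with Jag1, and 92.9, 83.1 and 84.4 with both. Its log2 differences were −2.87 with Jag1 (limma adjusted p 0.00331) and 2.47 with FICZ added (limma adjusted p 0.00153). Ptger3 fell by 1.79 with Jag1 (limma adjusted p 0.00937) and rose by 1.34 with FICZ added (limma adjusted p 0.00983). Ptger4, another prostaglandin E receptor, read 1917 to 3590 in the 10 samples with TGFβ and IL-34 and 7183 in the Jag1 only sample, and its adjusted p was 0.838 with Jag1 and 0.293 with FICZ added (limma). Ptger1 and Ptgfr did not pass in either contrast, and the receptors for prostaglandin D and thromboxane, Ptgdr, Ptgdr2 and Tbxa2r, stood at 0 to 2.93 in every sample and were not tested.

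Ltb4r1, the high-affinity leukotriene B receptor, read 290 and 326 in TGFβ/IL-34, 1555 and 599 with FICZ, 70.4, 80.2 and 44.4 with Jag1, and 1057, 918 and 888 with both. It fell by 2.27 on the log2 scale with Jag1 (limma adjusted p 0.00645) and was 14.7-fold higher in mean when FICZ was added (log2 difference 3.89 ± 0.34, limma adjusted p 7.3e-05). This is the direction of Lta4h and Alox5 in that contrast. Ltb4r2, Cysltr1 and Cysltr2, the low-affinity leukotriene B receptor and the receptors for cysteinyl leukotrienes, did not pass in either contrast. Cysltr1 read 124 in replicate 1 of TGFβ/IL-34/FICZ and 440 to 930 in the other 9 samples with TGFβ and IL-34, the same library in which Ltc4s was high.

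Genes that convert or carry the lipids changed in the same contrasts. Cyp4f18, a cytochrome P450 that hydroxylates leukotriene B, read 389 and 637 in TGFβ/IL-34, 459 and 1018 with FICZ, 7.49, 62.5 and 40.8 with Jag1, and 459, 723 and 722 with both. Its log2 differences were −4.14 with Jag1 (limma adjusted p 0.0077) and 4.46 with FICZ added (limma adjusted p 0.00111). Dpep2, a dipeptidase that acts on cysteinyl leukotrienes, fell by 2.03 with Jag1 (limma adjusted p 0.00369) and rose by 1.35 with FICZ added (limma adjusted p 0.0071). Reads of Dpep2 may be shared with an overlapping gene of the same symbol. Abcc1, a transporter of leukotriene C, rose by 1.04 with FICZ added (limma adjusted p 0.0156). Alox15, the 12/15-lipoxygenase, rose by 2.17 (limma adjusted p 0.00295), and Prxl2b, a prostaglandin F synthase, fell by 2.24 (limma adjusted p 0.0295). None of the 4 tested phospholipases A2 passed in either contrast.

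All 6 decreases with Jag1 lost their call when TGFβ/IL-34 replicate 2 was left out, with log2 differences that kept their sign and adjusted p of 0.0521 to 0.156 (limma). The call of the decrease of Prxl2b was lost without the filter on low values (limma adjusted p 0.0638), and when TGFβ/IL-34/Jag1 replicate 1 or 3, or any of the 3 TGFβ/IL-34/Jag1/FICZ replicates, was left out, and that of the increase of Abcc1 when TGFβ/IL-34/Jag1 replicate 1 or 3 or TGFβ/IL-34/Jag1/FICZ replicate 1 or 2 was. The decrease of Ltb4r1 was also lost without TGFβ/IL-34 replicate 1 (limma adjusted p 0.0543).

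**Figure D5:**
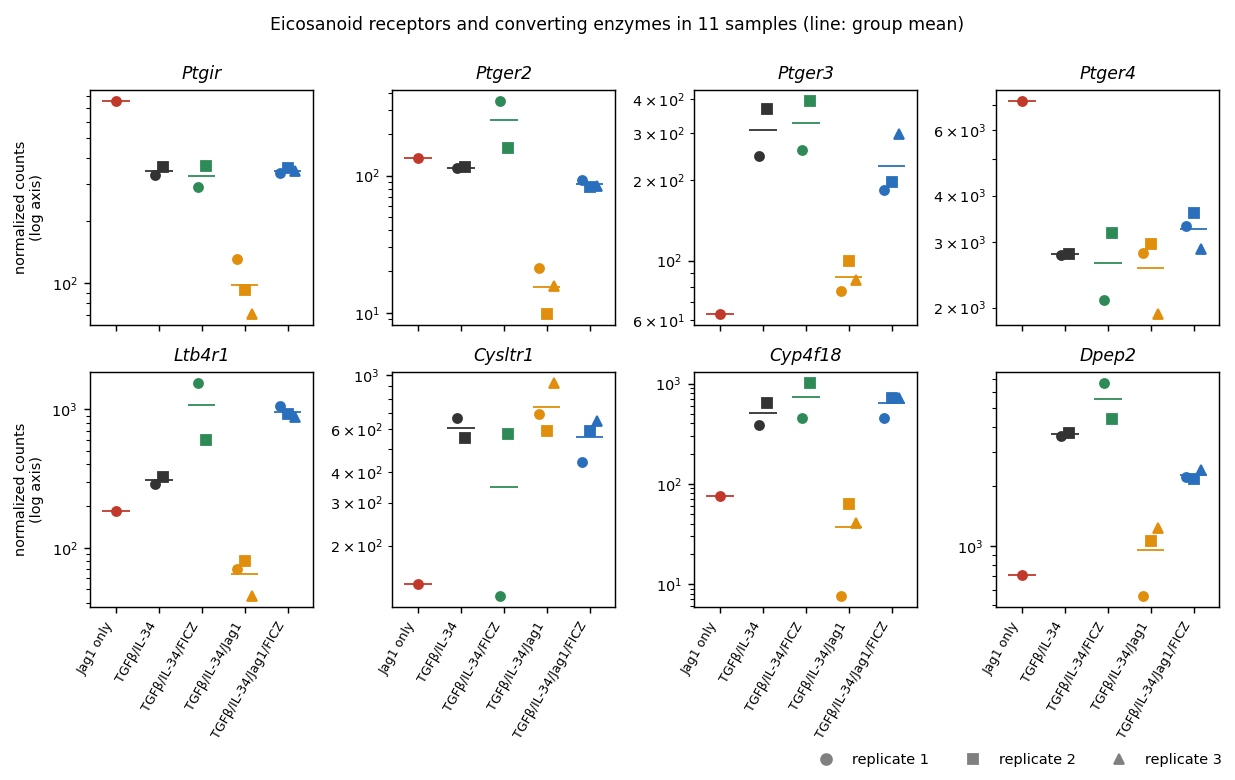
Normalized counts (log axis) of 6 receptors and 2 converting enzymes in the 11 samples, by culture group, with the group mean as a line. Ptgir, Ptger2, Ltb4r1 and Cyp4f18 are lowest in the 3 TGFβ/IL-34/Jag1 samples, whereas Ptger4 stays between 1917 and 3590 in the 10 samples with TGFβ and IL-34.

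The genes whose log2 values over the 11 samples were most like those of the 4 most variable members are given as a description. For Ptgis they were Htra3 (r = 0.983), Gprc5c (0.973) and Myo15b (0.971), for Tbxas1 Cnbd2 (0.966), Lpar6 (0.965) and Tpcn1 (0.951), for Ptgs1 P2ry13 (0.996), Id1 (0.985) and Gimap5 (0.983), and for Ptges Agpat4 (0.887), Tigd5 (0.87) and Dlg4 (0.857). The points share the 5 culture groups, and for Ptgs1 they include the Jag1 only sample far below the rest.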

How the data were processed

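Reads of 11 samples were quantified by the authors with salmon against a GRCm39 transcript model, summed to genes with tximport and scaled with DESeq2. The deposited values are a normalized signal per gene (normalized counts). Tool versions are not given in the sources used here. Low values of all genes were whole multiples of 1 read in only 52.4% to 58.1% of cases (within 0.1 steps, up to 15 steps), so no count model was used on them. The estimated depth was 20.6 to 24.2 M reads. Counting error weighs most on genes with few reads.

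The 13095 genes that reached 10 in 2 or more samples were fitted as log2(value + 1) in R 4.3.3 with limma 3.58.1 (1 mean per group, trended eBayes, 6 residual degrees of freedom). For each of 5 contrasts, two-sided p-values were adjusted over all tested genes (Benjamini-Hochberg) and called at 0.05. Of 21860 genes, 21676 matched GENCODE vM39, the source of coordinates and transcript lengths.

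The members and lists were chosen with earlier results of these data known. All members were named. Other pathway genes were named where they passed in a contrast and had a mean of at least 50 in 1 group, at most 4 per role, with all receptors. The 3 genes with the highest Pearson r were named for the 4 members with the largest SD.

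In simulated counts with each gene's own spread, 20 of 100 genes changed 2-fold and 60 of 100 changed 4-fold were recovered for Jag1 without FICZ (12892 genes), and 27 and 72 for FICZ with Jag1 (12870 genes), with no wrong sign and 3.61% and 1.98% of calls false. Only these genes were changed, fewer than the 864 and 2312 called in the data, so the recovered shares may not carry over to the data.

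Replicate numbers were checked for pairing. Between TGFβ/IL-34/Jag1/FICZ and TGFβ/IL-34/Jag1, same-numbered samples deviated from their group means with correlations of 0.153, 0.122 and 0.166 across genes, and the numbers carry the same experiment code, so they pair these groups. In the other contrasts the correlations were under 0.1. Same-numbered samples of TGFβ/IL-34/Jag1/FICZ and TGFβ/IL-34/FICZ also carry the same code (correlations 0.0591 and 0.0578). By the sample description, same-numbered samples of TGFβ/IL-34 and of the groups compared with it carry different codes. The correlations with TGFβ/IL-34 therefore do not check pairing by code, and the replicate block does not follow the codes there. The experiment code of a second deposited table differed from the sample description in 1 sample. The fit was repeated with quantile normalization, with pseudocounts of 0.5 and 4, without the filter, with only the groups of a contrast, with a replicate block, experiment code blocks, array weights and leaving out each replicate. Fits with the flow cell of the sample description as a block, and with only the flow cell of 9 samples, were added. These fits and the block by the second table's code were chosen after seeing the data.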

Additional observations from a re-analysis of the deposited data

Results flagged for a closer look

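Ptgir, the prostacyclin receptor, was the only one of the members and other pathway genes to pass a test of whether the FICZ effect differed between cultures with and without Jag1. FICZ changed it by 1.86 on the log2 scale with Jag1 and by −0.09 without it, an interaction of 1.95 ± 0.39 (SE, limma adjusted p 0.0433). With the replicate number as a block the interaction had an adjusted p of 0.053 (limma). It also lost its call under quantile normalization, no filter, both experiment code blocks, the flow cell block, only the flow cell of 9 samples, array weights and the omission of either TGFβ/IL-34 replicate, of TGFβ/IL-34/FICZ replicate 1, of TGFβ/IL-34/Jag1 replicates 2 and 3 and of each TGFβ/IL-34/Jag1/FICZ replicate, with adjusted p of 0.0522 to 0.283. In its place Cyp4f18 passed the interaction under the replicate block and the block by the second table's code, and Ltb4r1 under the flow cell block and without TGFβ/IL-34/FICZ replicate 1. The cell type lists were chosen with earlier results of these data known, and none of 7 Langerhans cell and 8 stromal genes passed the same test. It was passed by 2 of 9 neutrophil lineage, 2 of 6 mast cell and basophil and 1 of 6 monocyte and macrophage genes. Passing too were 1 of 3 endothelial and 1 of 3 megakaryocyte and platelet genes, 7 marker genes in all, beside 1.39% of all tested genes. Their interactions on the log2 scale were 6.28 ± 1.13 for Elane (limma adjusted p 0.0382), 4.86 ± 0.53 for Cebpe (0.00562), 4.01 ± 0.56 for Ly6c2 (0.0135), 3.26 ± 0.39 for Gata2 (0.00631), 2.84 ± 0.26 for Pecam1 (0.00177), 2.12 ± 0.44 for Cpa3 (0.0472) and 1.96 ± 0.23 for Itga2b (0.00631). Groups held at most 3 samples, so no single sample could be tested as standing apart from its group.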

How the results depend on the processing

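No difference past the threshold changed its sign under any alternative. Of 41 member differences that did not pass, 17 changed sign under at least 1 alternative, among them those of Ptges, Alox5ap and Tbxas1 for FICZ without Jag1, and of 129 differences of other genes 46 did. Of the genes other than members, 10 passed for Jag1 without FICZ under array weights (6 in the fit reported), where 2627 genes in all passed (864 in the fit reported), and 0 passed the interaction under quantile normalization, no filter, the experiment code block of the description, array weights or only the flow cell of 9 samples (1 in the fit reported). Of the members, 0 passed for Jag1 with FICZ under quantile normalization, no filter, only the groups of the contrast, either experiment code block, array weights or only the flow cell of 9 samples (1 in the fit reported, Ptgis), and 1 passed the interaction with a pseudocount of 4 and with the replicate block (0 in the fit reported). For FICZ with Jag1, whose groups pair by number and code, the replicate block left 6 members and 9 other genes past the threshold, the same genes as without it. Ptgs1 also passed for Jag1 without FICZ under the replicate block and array weights, giving 3 members, but under neither experiment code block.

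Leaving out 1 replicate at a time, the count of other genes ranged from 0 to 10 for Jag1 without FICZ, 0 to 9 for FICZ without Jag1, 7 to 13 for FICZ with Jag1, 0 to 11 for Jag1 with FICZ and 0 to 14 for the interaction. The count of members ranged from 2 to 2, 0 to 5, 6 to 7, 0 to 3 and 0 to 5 in the same order, and that of all genes from 195 to 2172, 0 to 5734, 1389 to 4098, 54 to 5827 and 9 to 5497. The highest counts of the contrasts that hold TGFβ/IL-34/FICZ came without its replicate 2, and the 0 for Jag1 without FICZ without TGFβ/IL-34 replicate 2. The cause was not tested. With 1 to 3 samples per group, changes of 2-fold were mostly not recovered in the simulated counts.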
